A study of Mus musculus with 6 samples.

Results

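Regions with an Arid3a CUT&Tag peak in all 6 libraries, lying away from protein-coding gene ends and packed close together, are described here. The peaks of the 6 lists were merged where they overlapped by at least 1 bp, which gave 79295 regions. Of these, 29602 held a peak in every list, and 20648 of those shared regions lay over 1 kb from both ends of every protein-coding gene (shared distal regions). Shared distal regions at most 12.5 kb apart were stitched into 14504 units, and 246 units of at least 5 regions, called clusters, held 1497 regions. The members were therefore 7.25% of the shared distal regions and 1.89% of all merged regions. The members were thus chosen by the called peaks of the same 6 libraries, so their number, spacing and presence in every library are given as description. Of the units just under the limit, 284 held 4 regions, while 121 clusters held 5.

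Arid3a is a DNA-binding protein named for its AT-rich interaction domain (ARID) and is known from B lymphocytes and early development. CUT&Tag tethers a transposase to an antibody on chromatin, so that sequenced fragments pile up where the antibody sits or where the transposase cuts open chromatin. Dense groups of distal elements of the kind that stitching collects are known, from other marks and factors, as stretch enhancers or super-enhancers, and they often surround genes of a cell's identity or of its response to stimuli. Vascular smooth muscle cells build the contractile layer of arteries and can leave the contractile state for a migratory, matrix-producing one.

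Mouse primary vascular smooth muscle cells were used, and every library was made with an antibody to Arid3a from 10000 cells. The 3 siRNA-labelled libraries came from cells transfected with si-Arid3a, with a separate siRNA number for each, and the 3 NC-labelled libraries from cells given the negative control. Transfection lasted 24 h. The protocol describes exposure to angiotensin II for 36 h as a model of abdominal aortic aneurysm, with medium alone as its control, but the labels do not say which libraries were exposed. Strain, sex, age and separate cultures are not stated either, so p-values measure how far these libraries spread, and that spread may be technical. The name column of all 6 lists disagrees with the labels: siRNA-labelled lists name their peaks after NC libraries and NC-labelled lists after siRNA libraries, number by number. Groups follow the sample labels here. Every direction below between siRNA-labelled and NC-labelled libraries rests on those labels.

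The lists held 43834 to 51682 peaks in siRNA-labelled libraries and 47789 to 50047 in NC-labelled libraries. The deposited fold and p-value of a peak fix the whole number of fragments at its summit and the local background beneath it, and both were solved for every peak. The median summit held 16 fragments in each siRNA-labelled library and 18 to 20 in NC-labelled libraries, over a library background of 0.475 to 0.538 fragments per base in siRNA-labelled libraries and 0.621 to 0.673 in NC-labelled libraries. Raw fragments are thus lower in the siRNA-labelled libraries as a whole, and the tests centre each library on its own median over shared regions. Depth in reads is unknown. Summit fragments of siRNA-labelled libraries 2 and 3 differed by less than sampling noise (mean chi-square 0.768 over 4134 regions). The NC-labelled pairs did so too (0.770 to 0.851). Only 8.59% of shared regions had the summit of siRNA-labelled libraries 2 and 3 on the same base, so the libraries were kept apart. For siRNA-labelled library 1 the value was 1.23 and 1.16 against siRNA-labelled libraries 2 and 3. Against NC-labelled libraries it was 1.12 to 1.40, so library 1 was not clearly closer to its own group. As a partial check of the cell type, 60% of 20 contractile smooth muscle genes had a shared region within 1 kb of a gene end. The share was 14.3% of endothelial, 21.4% of leukocyte, 7.69% of epithelial and 0% of neuronal marker genes, and 44.5% of all protein-coding genes. Over the gene lists below that are not cell type markers, it ran from 38.1% (angiotensin, endothelin and oxidative stress) to 86.7% (ARID family). The measure thus does not settle the cell type.

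The clusters spanned 8.86 to 106 kb with a median of 32.0 kb, and 8.30 Mb in all. Numbers of regions fell off steeply, with 34 clusters of at least 8 regions and 6 of at least 10. Neighbouring members lay 5365 bp apart at the median, and the widest gap inside a cluster was 12498 bp. The nearest shared distal region outside a cluster was 12655 bp away, and 62 of 491 cluster edges had one within 15000 bp, so those borders turn on the stitching distance. Inside a protein-coding gene lay 50.4% of members and 52.6% of other shared distal regions. The median distance to a gene end was 30.9 kb for members and 23.4 kb for other shared distal regions. A protein-coding gene overlapped 151 clusters, and 95 lay between genes. The 164 host genes were long, with a median of 73.1 kb against 17.2 kb for all protein-coding genes.

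**Figure D1:**
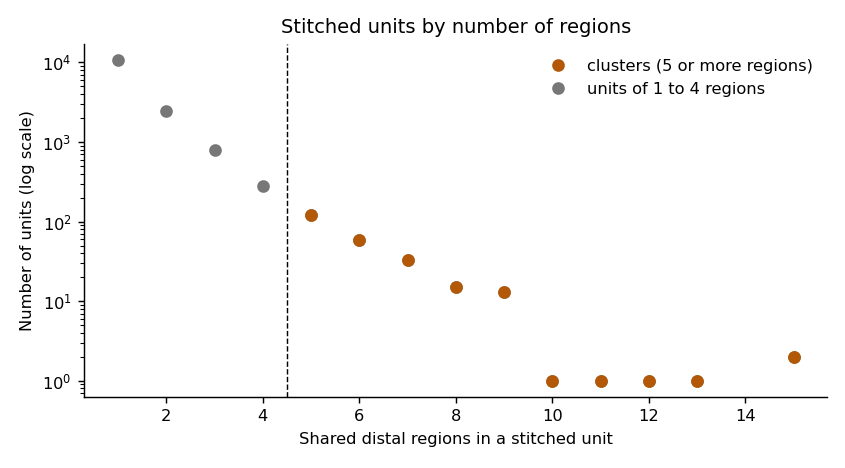
Number of stitched units (y axis, log scale) by the number of shared distal regions they hold (x axis); each point is 1 size and the dashed line marks the limit of 5 regions. The 246 clusters lie to its right, with 121 of them at 5 regions and the largest at 15.

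Clusters were spread unevenly over chromosomes. Chromosome 11 held 28 of them, chromosome 2 held 25, chromosome 17 held 19 and chromosome 15 held 18. As a share of shared distal regions, members made up 12.2% on chromosome 17, 11.7% on chromosome 19 and 10.8% on chromosome 11, but 3.58% on chromosome 13. The X chromosome held 289 shared distal regions and 0 clusters, and its largest unit held 3.

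The strongest member lay beside a long non-coding RNA gene. This region, chr19:5803181-5804809 (mm10), was 509 bp from an end of Malat1, an abundant nuclear RNA, in a cluster of 8 regions. Its summit held 480, 554 and 545 fragments in siRNA-labelled libraries and 612, 677 and 614 in NC-labelled libraries. The second was inside Vmp1, which encodes a membrane protein of autophagy, at chr11:86586350-86587625, 2192 bp from the hairpin of Mir21a. Mir21a encodes miR-21, a microRNA known to be induced in injured vessels. That summit held 338, 323 and 371 fragments in siRNA-labelled libraries and 454, 399 and 424 in NC-labelled libraries. The groups do not overlap in raw fragments at either region, as over the libraries as a whole. The mature products of this hairpin (RefSeq, GRCm38.p6, minus strand) are shown because the gene lies within the third largest cluster, with the seed, bases 2 to 8, in capitals.
mmu-miR-21a-5p: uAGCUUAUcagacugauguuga
mmu-miR-21a-3p: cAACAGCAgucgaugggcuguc

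The next 3 members by strength were in or near genes of the cytoskeleton, chromatin and transport. In Plec, the gene of the cytoskeletal linker plectin, chr15:76203791-76205521 held 272, 328 and 354 fragments in siRNA-labelled libraries and 342, 375 and 347 in NC-labelled libraries. Outside genes and 75979 bp from Chd2, a chromatin remodeller gene and the nearest one, chr7:73617725-73618926 held 241, 300 and 317 fragments in siRNA-labelled libraries and 389, 393 and 352 in NC-labelled libraries. In Slc43a2, an amino acid transporter gene, chr11:75563795-75564633 held 268, 305 and 325 fragments in siRNA-labelled libraries and 345, 343 and 330 in NC-labelled libraries. Raw fragments overlapped between the groups at the Plec region and not at the other two. The range over all members ran from 6.5 to 583 fragments (median over the 6 libraries), with 144 members at 100 or more.

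Although members lie over 1 kb from the outer ends of genes, 68 of them overlapped a RefSeq promoter window, the 250 bases before and 50 after a transcript start. These windows belong to starts inside genes or to non-coding genes, 38 to protein-coding genes and 42 to lncRNA genes, in 59 clusters. The stretches before the start are printed for 5 windows in which the summits of all 6 libraries fell in those 250 bases. They run 5′ to 3′ in the direction of transcription (RefSeq, GRCm38.p6), and capitals mark the AP-1 motif, TGAGTCA or TGACTCA, searched on both strands. The 5 are examples and were not picked by rank. Windows of Atxn2l and Gm34157 also qualified, at members with medians of 142 and 107.5 fragments against 94 at Hif1a, and lack the motif. The printed stretches show the DNA under strong members. Those of protein-coding genes lie at an internal start of the lamin A/C gene Lmna (chr3:88503353-88503602, minus strand), of the receptor phosphatase gene Ptprs (chr17:56462222-56462471, minus strand) and of the hypoxia factor gene Hif1a (chr12:73907617-73907866, plus strand). The other two are lncRNA genes, 4930471E19Rik in the cluster between Hmga2 and Msrb3 (chr10:120636108-120636357, minus strand) and Gm36199 in the cluster near Pim1 (chr17:29434568-29434817, plus strand).
Lmna: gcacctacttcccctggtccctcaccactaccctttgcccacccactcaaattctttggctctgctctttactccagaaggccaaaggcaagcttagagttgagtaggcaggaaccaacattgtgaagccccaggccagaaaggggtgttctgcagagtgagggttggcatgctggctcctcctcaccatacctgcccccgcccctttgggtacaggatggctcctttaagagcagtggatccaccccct
Ptprs: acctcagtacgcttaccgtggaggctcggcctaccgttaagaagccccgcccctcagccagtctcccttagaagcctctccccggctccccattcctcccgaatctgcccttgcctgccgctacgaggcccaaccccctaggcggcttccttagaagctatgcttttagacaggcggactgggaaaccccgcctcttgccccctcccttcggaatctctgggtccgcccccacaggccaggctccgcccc
Hif1a: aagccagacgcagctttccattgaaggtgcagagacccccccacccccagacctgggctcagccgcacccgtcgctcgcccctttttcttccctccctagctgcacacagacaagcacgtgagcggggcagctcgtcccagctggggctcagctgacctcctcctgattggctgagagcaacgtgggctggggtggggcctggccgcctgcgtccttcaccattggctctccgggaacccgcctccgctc
4930471E19Rik: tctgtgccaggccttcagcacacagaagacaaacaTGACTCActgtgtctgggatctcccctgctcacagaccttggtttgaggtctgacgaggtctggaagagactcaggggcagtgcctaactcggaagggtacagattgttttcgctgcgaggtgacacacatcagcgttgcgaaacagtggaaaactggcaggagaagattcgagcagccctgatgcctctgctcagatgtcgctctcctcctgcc
Gm36199: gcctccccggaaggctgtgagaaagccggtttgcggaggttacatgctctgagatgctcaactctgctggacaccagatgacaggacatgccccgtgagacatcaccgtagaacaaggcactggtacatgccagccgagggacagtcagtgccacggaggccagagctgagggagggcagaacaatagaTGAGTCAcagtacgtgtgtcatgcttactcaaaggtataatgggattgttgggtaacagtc

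The member at the Lmna start held 167, 177 and 220 fragments in siRNA-labelled libraries and 239, 234 and 217 in NC-labelled libraries. At the 4930471E19Rik start, which is the strongest region of its cluster, it held 116, 122 and 137 fragments in siRNA-labelled libraries and 143, 137 and 135 in NC-labelled libraries. The groups overlap at both. The AP-1 motif was in 12.5% of the 80 promoter windows that overlap members, in 9.83% of 1485 windows that overlap other shared distal regions and in 5.20% of all 32817 windows. The homeobox-like AT-rich motif TAATTA was in 2.5% of the windows at members, in 2.63% at other shared distal regions and in 5.30% of all windows, and the AT-rich pair TTAAAT or ATTAAA was in 11.2% at members, 15.2% at other shared distal regions and 21.5% of all windows. The median A plus T share was 40.7% at members, 41.7% at other shared distal regions and 47.3% over all windows. In the 8766 windows that overlap a shared region within 1 kb of a gene end it was 37.3%. The AP-1 motif was in 3.19% of those windows, TAATTA in 1.75% and the AT-rich pair in 10.48%. Windows at members were thus lower in A and T than all windows but higher than those at gene ends. At members 10 of 80 windows held the AP-1 motif, 2 TAATTA and 9 the AT-rich pair, and these differences were not tested. Some windows overlap each other, and overlapping windows of Gm36199 hold the same AP-1 motif, so the windows are not all separate. Members that overlap a promoter window were 4.54% of all members, and the sequence of the other members was not used here.

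The clusters with the most regions lay near Tnfaip3 and across Myh9. The cluster with the longest span ran over chr10:19062140-19168612 with 15 regions, 46730 bp from Tnfaip3, which encodes the NF-kB inhibitor A20, and with Olig3 as the next gene on the other side. Its summed summits held 405, 455 and 457 fragments in siRNA-labelled libraries and 590, 574 and 581 in NC-labelled libraries, and its strongest region carried 18.6% of them. The other cluster of 15 regions lay across Myh9, the heavy chain of non-muscle myosin IIA, at chr15:77797871-77892190, with 8 of its regions inside the gene. Its sums were 1004, 1070 and 1142 fragments in siRNA-labelled libraries and 1259, 1323 and 1169 in NC-labelled libraries. After centring, siRNA-labelled minus NC-labelled libraries differed by -0.04 on the log2 scale at the Tnfaip3 cluster (SE 0.14, limma adjusted p = 0.945) and by 0.05 at the Myh9 cluster (SE 0.10, limma adjusted p = 0.886).

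The Vmp1 and Mir21a cluster had the shortest span of the 6 clusters with at least 10 regions. It had 13 regions in 48802 bp at chr11:86576029-86624830, 9 of them inside Vmp1, and its strongest region alone carried 37.7% of the summit fragments. Its sums were 842, 909 and 996 in siRNA-labelled libraries and 1187, 1114 and 1068 in NC-labelled libraries, with a centred difference of 0.01 (SE 0.10, limma adjusted p = 0.988). The Arf6 cluster had 12 regions at chr12:69416672-69502733, starting 40692 bp from the gene of this small GTPase of membrane traffic and actin. The Cebpb cluster had 11 regions at chr2:167740446-167801416, lying 50014 bp from Cebpb, a bZIP factor of inflammatory and metabolic genes, with the phosphatase gene Ptpn1 on its other side. The Ece1 cluster had 10 regions at chr4:137879578-137955410 inside the gene of the endothelin-converting enzyme, and 1 region of them carried 33.1% of its fragments. Its sums were 350, 389 and 401 in siRNA-labelled libraries and 480, 478 and 440 in NC-labelled libraries.

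**Figure D2:**
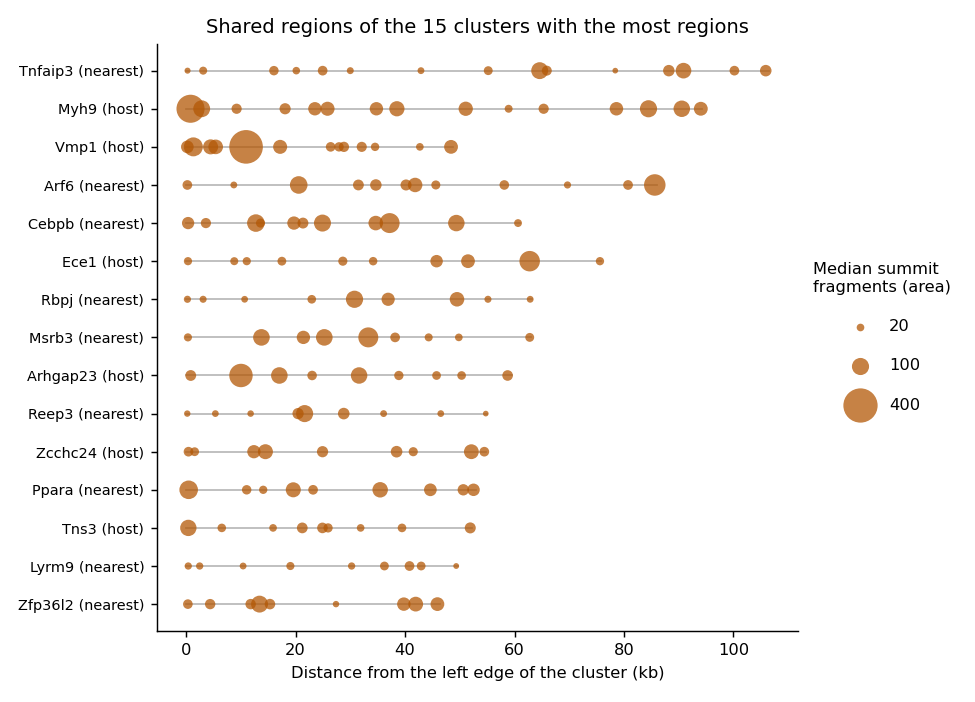
Positions of the shared regions in the 15 clusters with the most regions, where ties in number were broken by the longer span; the x axis is the distance from the left edge of the cluster in kb, each row is a cluster named by its host or nearest protein-coding gene, and the area of a point is the median summit fragments over the 6 libraries. The Tnfaip3 and Myh9 clusters stretch over 106473 and 94320 bp with 15 regions each, while the 13 regions at Vmp1 lie within 48802 bp around 1 region of 385 fragments.

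The other 9 of the 15 leading clusters held 9 regions each; 13 clusters had that number, and the 9 with the longest spans are described. A single gene overlapped 3 of them: all 9 regions lay inside Arhgap23, a GTPase-activating protein gene, 5 of 9 inside Zcchc24, a zinc finger gene, and 2 of 9 inside Tns3, the gene of the focal adhesion protein tensin 3. Those between genes lay 32408 bp from Rbpj, the DNA-binding factor of Notch signalling, 54385 bp from Reep3, a gene of endoplasmic reticulum shape, and 67081 bp from Zfp36l2, which encodes an mRNA decay factor. Another lay 115118 bp from Msrb3, a methionine sulfoxide reductase gene, and 126460 bp from Hmga2, an AT-hook chromatin protein gene. A cluster lay between Ppara, a lipid-sensing nuclear receptor gene at 47499 bp, and Wnt7b, a ligand gene at 52569 bp. The last lay 2395 bp from Lyrm9 and 24799 bp from Nos2, the inducible nitric oxide synthase gene, and was the weakest of the 15, with a strongest region of 32.5 fragments. The nearest gene is a matter of position and does not say which gene a region acts on.

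Within a cluster the regions were unequal. The strongest region held a median of 4.06 times the fragments of the weakest over the 246 clusters, with a range of 1.40 to 30.8, and it carried a median of 31.0% of the cluster's summit fragments. In the Zcchc24 cluster the ratio was 2.89, and in the Vmp1 cluster it was 19.2.

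Gene groups of smooth muscle biology differed in how many of their genes hosted or were nearest to a cluster. Over all protein-coding genes the share was 1.19%, that is 261 of 21883, and over 372 genes of 18 lists it was 41 genes. The lists were drawn up with earlier results of these data known, so the counts are a description. Gene length was not matched, and host genes had a median of 73.1 kb against 17.2 kb for all protein-coding genes. None of the 20 contractile genes, such as Acta2 or Myh11, had a cluster, although 12 of them had a shared region at a gene end. Of 16 myocardin, SRF and MEF2 regulators 4 had one, which were Elk3, Mef2d, Hdac5 and Mrtfa, the actin-sensing SRF coactivator.

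Among the lists, focal adhesion genes had the highest count. Of 30 focal adhesion and actin linker genes 8 had a cluster, including clusters of 9 regions at Tns3, 8 at Actn1 (the actin crosslinker alpha-actinin 1), and 7 each at Itgb5 and Itga5 (integrin subunits). Of 28 extracellular matrix genes 5 had one. Col4a2, a basement membrane collagen gene, had a cluster of 8 regions, and its strongest region had a median of 101 fragments. Thbs2, a thrombospondin gene, had 6, and Tnc (tenascin C) and Col5a1 (a fibrillar collagen) had 5 each. Of 23 matrix proteases and inhibitors 3 had one, Plau (urokinase), Timp2 and Adamts2.

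Signalling and transcription factor genes made up the rest. Of 25 TGF-beta and BMP genes 3 had a cluster, the co-receptor gene Tgfbr3, the inhibitory Smad7 and the effector Smad3, with 7, 7 and 6 regions. Of 22 AP-1 and immediate-early genes 4 had one of 5 regions each, Fosb, Fosl1, Klf4 and Atf3. The Klf4 cluster, near the gene of a factor known in smooth muscle dedifferentiation, lay 183742 bp from it. Of 30 mesenchymal transcription factor genes 5 had one, led by Prrx1 with 7 regions, Nfic and Runx2 with 6 and Foxp1 with 5. Of 20 growth factor and receptor kinase genes 3 had one, Vegfa, Met and Egfr. Of 23 Wnt and Notch genes 2 had one, Rbpj and Notch3, and of 23 Hippo genes 2 had one, Ccn1 and Amotl1. Tnfaip3 was the 1 gene of 22 in the inflammation list and Ece1 the 1 of 21 in the angiotensin, endothelin and oxidative stress list.

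The listed markers of other cell types had no cluster, with 0 of 14 endothelial, 0 of 14 leukocyte, 0 of 13 epithelial and 0 of 13 neuronal genes. Of the 15 ARID family genes 0 had one. In lists this short, 0 cannot be told apart from the 1.19% of all protein-coding genes. Arid3a itself held 2 shared distal regions in 1 unit. The first, chr10:79934112-79934790, held 68, 82 and 90 fragments in siRNA-labelled libraries and 75, 95 and 83 in NC-labelled libraries. The second, chr10:79936723-79937574, held 41, 53 and 54 in siRNA-labelled libraries and 49, 68 and 60 in NC-labelled libraries. The groups overlap at both, and these values say nothing of the level of Arid3a protein. Of the 261 genes at clusters, 167 had a shared region at a gene end, against 9744 of all 21883 protein-coding genes.

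**Figure D3:**
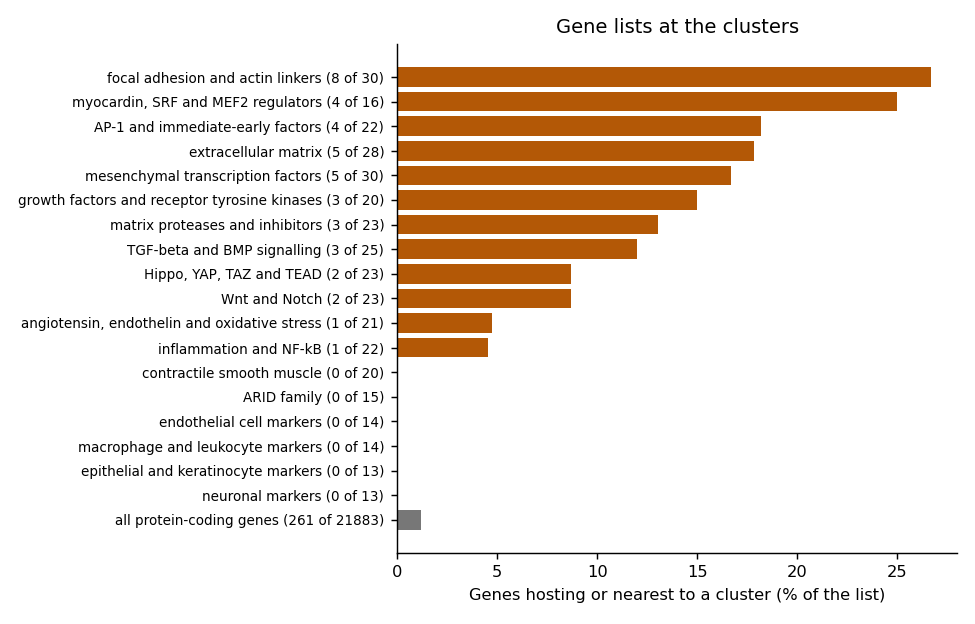
Share of the genes of each list that host or are nearest to a cluster (x axis, percent), with counts in brackets; the grey bar at the bottom is all protein-coding genes. Focal adhesion and actin linkers stand at 26.7% and myocardin, SRF and MEF2 regulators at 25%, against 1.19% of all protein-coding genes, with gene length not matched. Contractile genes and the 4 lists of other cell types stand at 0, which in lists this short cannot be told apart from 1.19%.

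Member regions carried more fragments than other shared distal regions, and yet a lower deposited fold enrichment. Ranked among all peaks of its own list by summit fragments, the median member stood at the 78.8, 81.4 and 82.2 percentile in siRNA-labelled libraries and at 81.0, 80.9 and 81.9 in NC-labelled libraries. For the median other shared distal region the percentile was 59.0, 63.2 and 63.2 in siRNA-labelled libraries and 61.2, 62.3 and 63.4 in NC-labelled libraries. Members thus stood 19.0 ± 0.687 points higher (SD, n = 6 libraries), and higher in 6 of 6. The difference was 19.0 ± 0.811 points in siRNA-labelled and 19.0 ± 0.722 points in NC-labelled libraries (SD, n = 3 each). Ranked by the deposited fold instead, the median member stood 13.7 ± 1.99 points lower than the median other shared distal region (SD, n = 6), and lower in 6 of 6 libraries. The median fold was 5.88, 6.35 and 6.27 for members in siRNA-labelled libraries and 5.89, 6.13 and 5.94 in NC-labelled libraries. Other shared distal regions had a median fold of 6.75, 7.36 and 7.26 in siRNA-labelled libraries and 7.14, 7.36 and 7.15 in NC-labelled libraries.

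The local background, by which the fold is divided, moved with this. At member summits it was 9.33, 9.47 and 9.29 times the library background in siRNA-labelled libraries and 9.59, 9.68 and 9.64 times in NC-labelled libraries. At other shared distal regions it was 3.80, 3.80 and 3.80 times in siRNA-labelled libraries and 3.84, 3.84 and 3.84 times in NC-labelled libraries, so it was 2.49 ± 0.0302 times as high at members (SD, n = 6). Peaks were also wider at members, by 25.2 ± 7.88 bp at the median (SD, n = 6) and in 6 of 6 libraries. Members lay 5365 bp apart at the median, and the windows used for the local background were not given. How far neighbouring members enter each other's local background was not tested. The lists that chose the members also gave the values of fragments, fold, background and width, so they are given with no test.

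Over the sizes of the units the rankings also ran opposite ways, though not evenly, with a dip at 7 regions by fragments. Median percentiles by fragments were 50.6 to 57.7 over the 6 libraries for regions alone, 75.3 to 78.9 for regions in clusters of 5, 76.5 to 81.9 in clusters of 7 and 84.9 to 86.9 in clusters of 8 to 15. Median percentiles by fold were 66.0 to 70.4 for regions alone, 52.7 to 59.2 in clusters of 5 and 43.1 to 50.7 in clusters of 8 to 15. The local background was 2.94 to 2.97 times that of the library for regions alone and 12.6 to 13.1 times in clusters of 8 to 15. Which of the opposite rankings is the better measure of Arid3a binding was not tested.

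**Figure D4:**
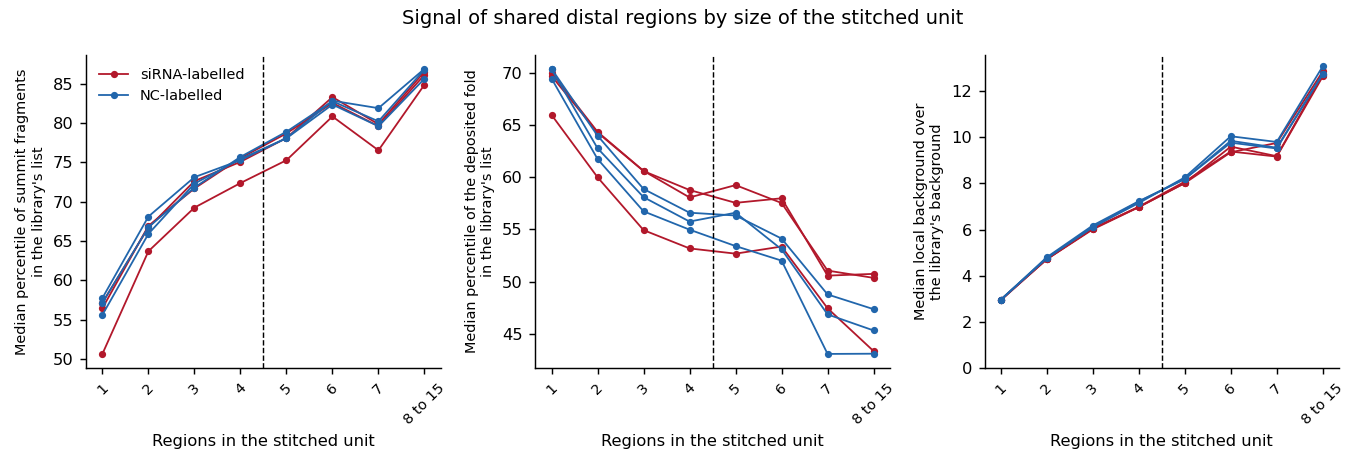
Median percentile of summit fragments within a library's list (left), median percentile of the deposited fold (middle) and median local background over the library's background (right) by the number of shared distal regions in the stitched unit (x axis); each line is 1 library, with siRNA-labelled libraries in red and NC-labelled libraries in blue, and clusters lie right of the dashed line. By fragments the lines climb to 84.9 to 86.9 in units of 8 to 15, by fold they sink to 43.1 to 50.7, and the local background climbs to 12.6 to 13.1.

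The comparison of siRNA-labelled with NC-labelled libraries asks whether the signal at regions that keep a peak in all 6 libraries changes when Arid3a is targeted. A site that lost its peak in any siRNA-labelled library is not among the regions tested. Centring on the median of these regions also hides a change that most of them share. Of the shared regions tested, limma called 64 of 29602 at an adjusted p under 0.05, which is 0.216% (28 higher, 0.0946%, and 36 lower, 0.122%, in siRNA-labelled libraries). Among members 3 of 1497 were called, 2 higher and 1 lower, a share near that background. The median log2 difference, siRNA-labelled minus NC-labelled, was -0.01 over members and 0.00 over all shared regions. The middle part of the members lay between -0.14 and 0.13 (quartiles), against -0.15 and 0.16 for all shared regions. Scaling by background coverage in place of the median moves every difference up by 0.11 on the log2 scale and calls 121 shared regions higher and 11 lower in siRNA-labelled libraries, with 9 members higher and 0 lower, and directions here are relative to the median shared region.

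The called member that was lower lay in the cluster near Enpp2, the gene of the lysophospholipase autotaxin, at chr15:54820512-54821412. It held 24, 16 and 21 fragments in siRNA-labelled libraries and 53, 43 and 40 in NC-labelled libraries, so the groups do not overlap. The difference was -0.84 (log2, SE 0.19, limma adjusted p = 0.0301), while the other 4 regions of the cluster ranged from -0.34 to 0.31. A region inside Septin9, a septin cytoskeleton gene, at chr11:117265279-117266638, held 92, 108 and 122 fragments in siRNA-labelled libraries and 92, 113 and 75 in NC-labelled libraries. Raw values overlap there, and the centred difference was 0.50 (log2, SE 0.12, limma adjusted p = 0.0397). The 6 other regions of its cluster ranged from -0.25 to 0.21. A region inside Sfi1, a gene of a centrosome protein, at chr11:3161146-3161654, held 79, 86 and 86 fragments in siRNA-labelled libraries and 70, 72 and 71 in NC-labelled libraries. Here raw fragments were higher in each siRNA-labelled library, with a centred difference of 0.52 (log2, SE 0.12, limma adjusted p = 0.0397), and the 5 other regions of the cluster ranged from 0.04 to 0.30. Whether reads at Sfi1 map to a single place was not tested. The differences kept their sign when any 1 library was left out, at 0.48 to 0.57 for Sfi1, 0.38 to 0.62 for Septin9 and -1.04 to -0.67 for Enpp2, but the number of calls moved. Without siRNA-labelled library 2 or 3, or NC-labelled library 1 or 3, 0 members were called, without NC-labelled library 2 it was 1, and without siRNA-labelled library 1 it was 27 (7 higher and 20 lower). With siRNA-labelled libraries 2 and 3 averaged as 1 sample it was also 0.

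Taken as whole units, 0 of 246 clusters passed the limma test in the fit of all 14504 units, of which 2 were called, or 0.0138%. In that fit 3 clusters had an unadjusted limma p under 0.05, against 1585 of all units, or 10.9%. Of the 14504 units 10724 were single regions, whose variance the fit shares with the clusters, so these 2 counts are not like for like. Cluster differences ranged from -0.29 to 0.40 with 240 of 246 within 0.25 of 0, and the median SE of a cluster was 0.12. In 26 of 246 clusters every siRNA-labelled library lay above every NC-labelled library, against 1189 of 14504 units, or 8.2%. In 31 of 246 clusters every siRNA-labelled library lay below, against 1133 units, or 7.81%. Both shares were higher among clusters, but they are not like for like either, since most units are single regions. The smallest unadjusted p among the higher clusters were at Zfp703, a transcriptional repressor gene 89615 bp away (0.40, SE 0.14), at Sfi1 (0.25, SE 0.10) and at Stk10, a kinase gene (0.25, SE 0.12). Among the lower ones they were at Mylk2, a myosin light chain kinase gene (-0.29, SE 0.10), at Thbs2 (-0.22, SE 0.11) and at Fblim1, a focal adhesion gene (-0.21, SE 0.11). A fit restricted to the 1321 units of at least 3 regions, chosen after seeing the data, called 28 units, and among them the clusters at Zfp703 (limma adjusted p = 0.0331) and Mylk2 (limma adjusted p = 0.0341). There 30 of 246 clusters, or 12.2%, had an unadjusted limma p under 0.05, against 15.4% of the 1321 units. The centred means at Zfp703 were 0.18, 0.24 and 0.37 in siRNA-labelled libraries and -0.19, -0.07 and -0.15 in NC-labelled libraries. At Mylk2 they were 1.47, 1.37 and 1.20 in siRNA-labelled libraries and 1.73, 1.56 and 1.63 in NC-labelled libraries. The groups do not overlap at either cluster.

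**Figure D5:**
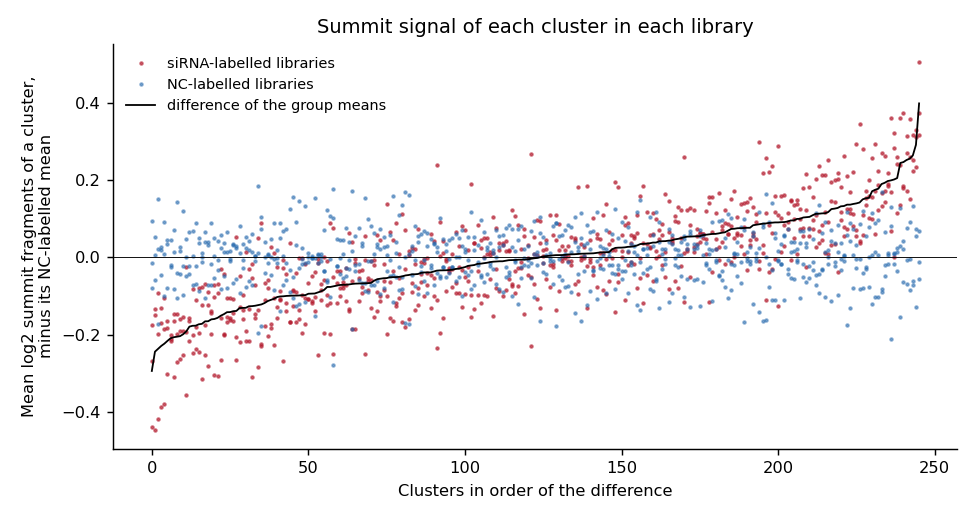
Mean log2 summit fragments of each cluster in each library, centred on the library and set relative to the cluster's NC-labelled mean (y axis), with the 246 clusters in order of their difference (x axis); red points are siRNA-labelled libraries, blue points NC-labelled libraries and the line is the difference of the group means. The line runs from -0.29 at Mylk2 to 0.40 at Zfp703, and red and blue points overlap for most clusters.

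The share of the cluster spans that lay under peaks was also compared. Peaks covered 11.5%, 11.4% and 11.9% in siRNA-labelled libraries and 13.2%, 13.0% and 12.9% in NC-labelled libraries, or 11.6% ± 0.278 and 13.0% ± 0.161 (SD, n = 3 each). The groups do not overlap. Units of 2 to 4 regions moved alike, with 13.9% ± 0.386 in siRNA-labelled and 15.8% ± 0.184 in NC-labelled libraries (SD, n = 3 each), and the background coverage given above was also lower in siRNA-labelled libraries; its part in the result was not tested. The spans held 354 further distal regions that lacked a peak in at least 1 library. Of these 101, 173 and 156 had a peak in siRNA-labelled libraries and 154, 186 and 147 in NC-labelled libraries, which overlap. The peaks counted here are those from which the spans were built, so these values are given with no test.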

How the data were processed

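CUT&Tag for Arid3a was analysed from 6 peak lists, each called on a single library. Per the submitters' processing notes, Bowtie2, Picard and MACS2 were used with mm10; the versions and settings were not given in the sources used here. For each peak the authors deposited a fold enrichment (a ratio over local background), −log10 p, −log10 q and an integer score. The deposited score was not used. These are the authors' own values. Whole summit fragments and local background were solved from fold and −log10 p, which recovered 100% of 1998 simulated summits. Those summits were made by the same formula, with local backgrounds below the median of members. Members with higher backgrounds were thus not covered by the check. The solved values come from rounded ratios and not from reads.

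Regions, units and clusters followed the stated rule, with gene models from RefSeq (GRCm38.p6). Log2(fragments + 1), centred on each library's median over shared regions, was tested with limma 3.58.1 (R 4.3.3, trend, Benjamini-Hochberg over all regions or units). In simulated data 67% of 100 regions changed by 1 and 91% of 100 changed by 2 on the log2 scale were recovered, with 5 false calls. The simulated counts had sampling noise only (Poisson), with no further spread between libraries. These rates may therefore not hold for the real libraries. The planned exact tests of members against other regions and of peak cover and peak counts in cluster spans are not given, because the same lists chose the members. No genome was used, so the planned motif search over members was limited to RefSeq promoter windows. Members, lists and tests were chosen with earlier results of these data known. Named genes are the hosts and nearest genes of the 15 largest clusters, up to 4 genes per list, the 3 clusters in each direction with the smallest p, the 5 strongest members and Arid3a. Other stitching, thresholds, scaling, pseudocounts, filters and left-out libraries were tried.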

Additional observations from a re-analysis of the deposited data

Results flagged for a closer look

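The name column, which the comparisons do not use, went against the labels in 6 of 6 lists: peaks of siRNA-labelled lists bear NC library names and peaks of NC-labelled lists bear siRNA library names, with matching numbers. If the names rather than the sample labels were right, each difference between siRNA-labelled and NC-labelled libraries would change sign, while the clusters, the gene lists and the comparison of members with other shared distal regions would not change.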

How the results depend on the processing

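Clusters numbered 24 with 129 members when stitched at 5 kb, 697 with 4804 at 25 kb, 530 with 2633 at 4 or more regions, 125 with 892 at 6 or more, and 123 with 727 for peaks with −log10 q of at least 5. Without each library in turn they numbered 261 to 292, with 1585 to 1785 members. Members called between the groups numbered 9 under background scaling (9 higher, 0 lower), 8 with a pseudocount of 5 (3 higher, 5 lower), 0 with siRNA-labelled libraries 2 and 3 as 1 sample, 0 on the deposited fold, and 0 to 27 without 1 library; the cause was not tested. Same-numbered libraries deviated together with r of 0.04, 0.03 and -0.02, and differently numbered ones with r of -0.08 to 0.05. At summits of few fragments these values cannot decide whether the numbers pair the libraries. With the replicate block 8 members and 0 clusters were called. Units of at least 3 regions gave 2 called clusters. The called regions kept their call under 4 of 12 alternatives at Enpp2 (log2 -1.04 to -0.50, nearest 0 on the deposited fold; limma adjusted p 0.000952 to 0.485), 6 of 12 at Septin9 (0.38 to 0.62; adjusted p 0.0111 to 0.500) and 5 of 12 at Sfi1 (0.45 to 0.63; adjusted p 0.0144 to 0.485), with their sign kept throughout. The member percentile stood 18.1 points higher inside genes, 25.3 against regions that stand alone and 16.8 at −log10 q of at least 5, and turned to -13.7 on the deposited fold. Without 1 library it was 18.8 to 19.2. The count of non-shared regions differed by -19.0 between the groups, and by -33.8 to 2.17 without 1 library. The share of cluster span under peaks kept its direction under every alternative run. Depth in reads is unknown, and precision at low summits is limited by their few fragments.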
